A study of Rattus norvegicus with 24 samples.

Results

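A set of 10 genes for hypothalamic neuropeptides, read by 11 of the 41012 probes of a rat expression array, was followed in saline RNA and after MK-801, a channel blocker of the NMDA receptor, in 6 brain regions. They are Avp, Oxt, Pmch, Hcrt, Agrp, Pomc, Cartpt, Trh, Crh and Gal, taken from a fixed list of names and matched by the symbol that the scanner files or RefSeq give; Cartpt stood under its older symbol Cart. The array held 35527 genes or transcripts in all. All 10 genes had a probe, and all 10 passed the filter on dim spots. Male Wistar rats of 10 weeks (3 saline, 6 MK-801) received 1 intraperitoneal injection and were studied 40 min later, at 0.16 mg per kg (high dose) or 0.08 mg per kg (low dose). Each region and dose was measured by a dye swap, that is 2 arrays on which MK-801 RNA and saline RNA exchanged the Cy3 and Cy5 dyes, which gave 24 arrays, 4 to a region. The 3 saline rats served as control for both doses, no array was tied to an animal, and the labels do not say whether rats were pooled. A change is given as log2 of MK-801 over saline signal, and a level is a log2 intensity after normalization, on which only values of the same probe can be compared.

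Hypothalamic peptides mark small groups of neurons. Magnocellular neurons of the paraventricular and supraoptic nuclei make vasopressin (Avp) and oxytocin (Oxt) for release in the posterior pituitary, and vasopressin neurons are also found in the medial amygdala and the bed nucleus. Neurons of the lateral hypothalamus and zona incerta make melanin-concentrating hormone (Pmch), their neighbours make orexin (Hcrt), and the arcuate nucleus holds Agrp and Pomc neurons with opposite actions on feeding. Cartpt, Trh, Crh and Gal are made in several hypothalamic nuclei and in neurons elsewhere in the brain. In such tissue samples, fewer cells of a type and less RNA per cell cannot be told apart.

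The probes for oxytocin and vasopressin are shown because both genes read lower in the amygdala, and because the genes are related copies that lie next to each other, transcribed toward each other, on chromosome 3. Each probe is 60 bases long and is written 5′ to 3′; positions are those of the scanner files on assembly rn3, and their exon or UTR annotation was not used here. Capitals mark the longest run shared by the oxytocin probe and the second vasopressin probe, 10 bases.
Oxt probe: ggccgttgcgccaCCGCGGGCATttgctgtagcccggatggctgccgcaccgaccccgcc
Avp first probe: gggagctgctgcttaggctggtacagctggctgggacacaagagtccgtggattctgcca
Avp second probe: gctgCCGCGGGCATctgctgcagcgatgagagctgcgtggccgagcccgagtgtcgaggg
The Oxt probe lies at chr3:118100336-118100479 on the plus strand, a span of 144 bases for 60 probe bases. The first Avp probe lies at chr3:118110655-118110714 and the second at chr3:118110779-118111063, both on the minus strand. Without gaps, the Oxt probe matched the second Avp probe at 35 of 51 aligned bases (68.6%) and the first, brighter Avp probe at 20 of 57 (35.1%). Avp is represented below by the first probe.

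The probes of 2 arcuate peptides are shown because their levels did not set the hypothalamus apart. Both are in lower case, with no part marked.
Pomc probe: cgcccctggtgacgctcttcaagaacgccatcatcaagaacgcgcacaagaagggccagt
Agrp probe: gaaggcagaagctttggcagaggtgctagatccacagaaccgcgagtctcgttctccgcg
They lie at chr6:26940572-26940631 on the plus strand and at chr19:35391762-35392003 on the minus strand.

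In saline RNA, 3 of the 10 genes were highest in the hypothalamus samples. Pmch read 13.07 ± 0.18 there (SD, n = 4 arrays, technical) and 9.93 ± 0.26 in the midbrain, a gap of 3.14 or 8.84-fold, and 7.83 to 8.45 in the other 4 regions. Oxt read 9.51 ± 0.05 in the hypothalamus against 7.96 ± 0.10 in the amygdala (2.93-fold) and 6.82 to 7.07 elsewhere. Trh, the peptide that drives thyrotropin release, read 10.47 ± 0.34 in the hypothalamus, 9.19 ± 0.30 in the ventral striatum (2.42-fold lower) and 6.36 to 7.15 elsewhere. In the cortex and the hippocampus, 2 of 4 saline channels each were above background for Trh.

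Vasopressin did not follow oxytocin. Avp read 11.07 ± 0.22 in the amygdala samples, 3.80-fold above the 9.14 ± 0.10 of the hypothalamus, and at most 8.87 in the other 4 regions. The second Avp probe gave the same first 2 places, with 8.37 ± 0.08 in the amygdala and 7.59 ± 0.04 in the hypothalamus.

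The arcuate peptides and orexin showed little regional pattern. Hcrt read between 8.24 and 8.77 in the 6 regions, and all 5 steps in its order, from cortex down to midbrain, were within 1 SD. Pomc read between 10.10 and 10.56, with the midbrain and the hypothalamus at the top and 0.05 apart. Agrp was lowest in the hypothalamus, 7.20 ± 0.16, and highest in the hippocampus, 7.79 ± 0.24. For these 3 probes the regional range was 0.46 to 0.59, so the levels they read did not mark the hypothalamus.

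The remaining peptides were highest outside the hypothalamus. Cartpt, whose peptide occurs in reward and feeding circuits, read 13.77 ± 0.11 in the midbrain and 12.29 ± 0.14 in the ventral striatum. The amygdala (9.67), hypothalamus (9.38), hippocampus (8.93) and cortex (7.77) followed, each more than 1 SD below the one before. Crh, the releasing factor of the stress axis, was highest in the cortex (9.55 ± 0.20) and the midbrain (9.15 ± 0.33) and read 8.33 ± 0.22 in the hypothalamus. Gal, galanin, read 10.01 to 10.18 in the midbrain, hippocampus, hypothalamus and amygdala, each within 1 SD of the next in that order, then 9.47 in the ventral striatum and 8.95 in the cortex.

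**Figure D1:**
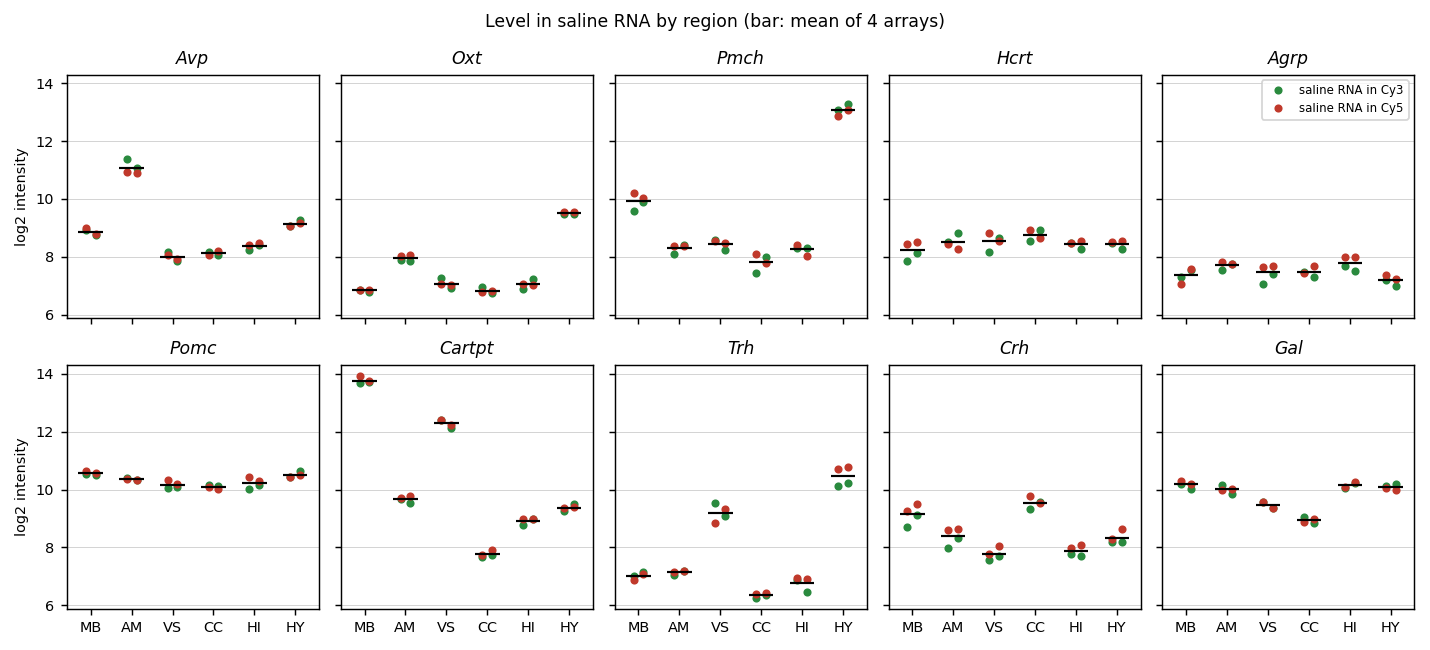
Log2 intensity of each peptide gene (y axis) in saline RNA of 6 regions (MB midbrain, AM amygdala, VS ventral striatum, CC cerebral cortex, HI hippocampus, HY hypothalamus); points are the 4 arrays of a region, coloured by dye, and bars are means. Pmch stands at 13.07 in the hypothalamus and Avp at 11.07 in the amygdala, while Hcrt, Agrp and Pomc are nearly level across regions.

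The dissected hypothalamus was also read through other markers. All 5 measured markers of the thalamic border (Prkcd, Lef1, Ntng1, Gbx2, Slc17a6) were highest in these samples. Of 13 measured hypothalamic transcription factors, Rax and Lhx9 were highest there. Lhx9 read 8.03 ± 0.31. Rax read 6.78 ± 0.29, with 1 of 4 arrays above background in both colours, and 6.54 in the amygdala, within 1 SD. Sim1 and Otp, which specify magnocellular neurons, did not pass the filter on dim spots. The thalamic markers, summed, stood at 16.41 to 16.53 on the log2 scale in saline and 16.51 to 16.66 in MK-801 RNA. Such a sum adds signals of different probes and is weighted to the brightest gene, here Prkcd at 15.86 in saline RNA.

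The largest change of any peptide gene was that of Pmch in the hypothalamus. On the 4 arrays Pmch read 13.07, 12.86, 13.29 and 13.07 in saline RNA, against 10.13 and 9.88 in high dose RNA and 11.51 and 11.33 in low dose RNA. The channels did not overlap: every MK-801 value was below every saline value. Both high dose values were below both low dose values, a difference that was not tested, since each dose had 1 dye swap in the region. The log2 ratio was -2.94 and -2.99 on the high dose arrays (7.80-fold lower on average) and -1.78 and -1.74 on the low dose arrays (3.38-fold lower). The mean over both doses was -2.36 ± 0.18 (SE, adjusted p = 1.04e-05, limma on 12 dye swap values with 2 per region), the lowest value of the 21567 genes tested there. Pmch was the only one of the 10 peptide genes called in the hypothalamus, where 1.58% of all genes were called. An unadjusted p under 0.05 was reached by 3 of the 10, against 2756 of 21567 genes in all. These p values rest on the spread between dye swaps of the same 9 rats, not on the spread between rats.

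Pmch was not called in any of the other regions. In the midbrain, where its saline level was next highest, the ratios were 0.30, -0.22, 0.02 and -0.25. Means over both doses in the 5 other regions lay between -0.11 and -0.01. The difference between the hypothalamus and the mean of the other 5 regions was -2.31 ± 0.19 (SE, adjusted p = 7.78e-05, limma). Of all genes, 0.334% were called in that contrast, and Pmch was the only one of the 10 peptide genes called by limma. An unadjusted p under 0.05 was reached by 4 of the 10, against 2556 of 21567 genes in all. With an intensity trend and a robust prior in the variance model, the difference for Pmch had adjusted p = 0.0531 (limma).

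The other members with a high level in the hypothalamus did not pass the test there. Trh had ratios of 0.18, 0.03, 0.25 and -0.06 (adjusted p = 0.457, limma). Oxt had 0.10, -0.12, -0.18 and -0.21 (adjusted p = 0.728). Avp was below saline on all 4 arrays, with -0.18, -0.25, -0.12 and -0.21, and did not pass the test (adjusted p = 0.239). Hcrt, the lateral neighbour of Pmch, had -0.02 over both doses and Pomc 0.02, but these probes did not mark the hypothalamus.

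Markers of other cell types moved in the hypothalamus samples together with Pmch. Among markers of midbrain monoamine neurons, 3 of 7 tested genes fell and none rose: Th, which makes the dopamine precursor, by 0.95, Slc18a2, the vesicular monoamine transporter, by 0.91 and Ddc, the decarboxylase of the same pathway, by 0.22. The summed level of the 8 genes measured stood at 12.74 to 13.25 in saline and 12.45 to 12.99 in MK-801 RNA. Ddc, the brightest of them, read 12.70 in saline RNA, and Tph2 was above background in both colours on none of the 4 arrays. Slc6a3, the dopamine transporter, was not tested; its ratios ranged from -2.44 to -1.90, with 1 of 4 arrays above background in both colours. Of 8 markers of striatal projection neurons, 4 fell, among them Rgs9 by 0.43, Adora2a by 0.40 and Ppp1r1b by 0.19. The summed level of the 9 measured stood at 14.97 to 15.07 in saline and 14.93 to 15.07 in MK-801 RNA. Rasd2, the brightest of them, read 14.85 in saline RNA with a change of 0.002, while Rgs9 and Adora2a read 9.41 and 9.44. This sum therefore says little about the genes that fell.

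Nrgn, 1 of 9 projection neuron genes of cortex and hippocampus, fell by 0.31. Of 6 oligodendrocyte genes only Aspa was called, and it rose by 0.28. The median change of the 6 was -0.10, and 4 of them had an unadjusted p under 0.05 (limma). Among 13 hypothalamic transcription factors, 1 was called and was lower (limma), and 3 had an unadjusted p under 0.05. Of the 5 thalamic, 7 choroid plexus, 8 meningeal, 4 pituitary and 3 red blood cell genes, none was called (limma). An unadjusted p under 0.05 was reached by 1, 0, 0, 1 and 1 of them. Ttr, the main choroid plexus transcript, had -2.0 at the high dose and 0.34 at the low dose. Clic6 had -0.50 and 0.04, Aqp1 -0.41 and 0.03 and Folr1 -0.38 and 0.10, in the same order, so these choroid plexus genes were below saline at the dose with the larger fall of Pmch. The summed level of the 7 choroid plexus genes measured stood at 13.69 to 13.75 in saline and 11.76 to 14.14 in MK-801 RNA. Ttr, the brightest of them, read 13.61 in saline RNA. The part of any of these cell types in the fall of Pmch was not tested. Nor was a difference in dissection between saline and MK-801 rats, and both doses shared the same saline rats.

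Over the 12 dye swap values, the gene with a pattern most like that of Pmch was Th (r = 0.95). Th was chosen from 964 other genes measured in the hypothalamus whose values spanned at least 0.5, and the points share saline RNA and slides. In saline levels over 24 channels, Lef1 was the only one with a gene symbol among the 3 most like it (r = 0.98).

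**Figure D2:**
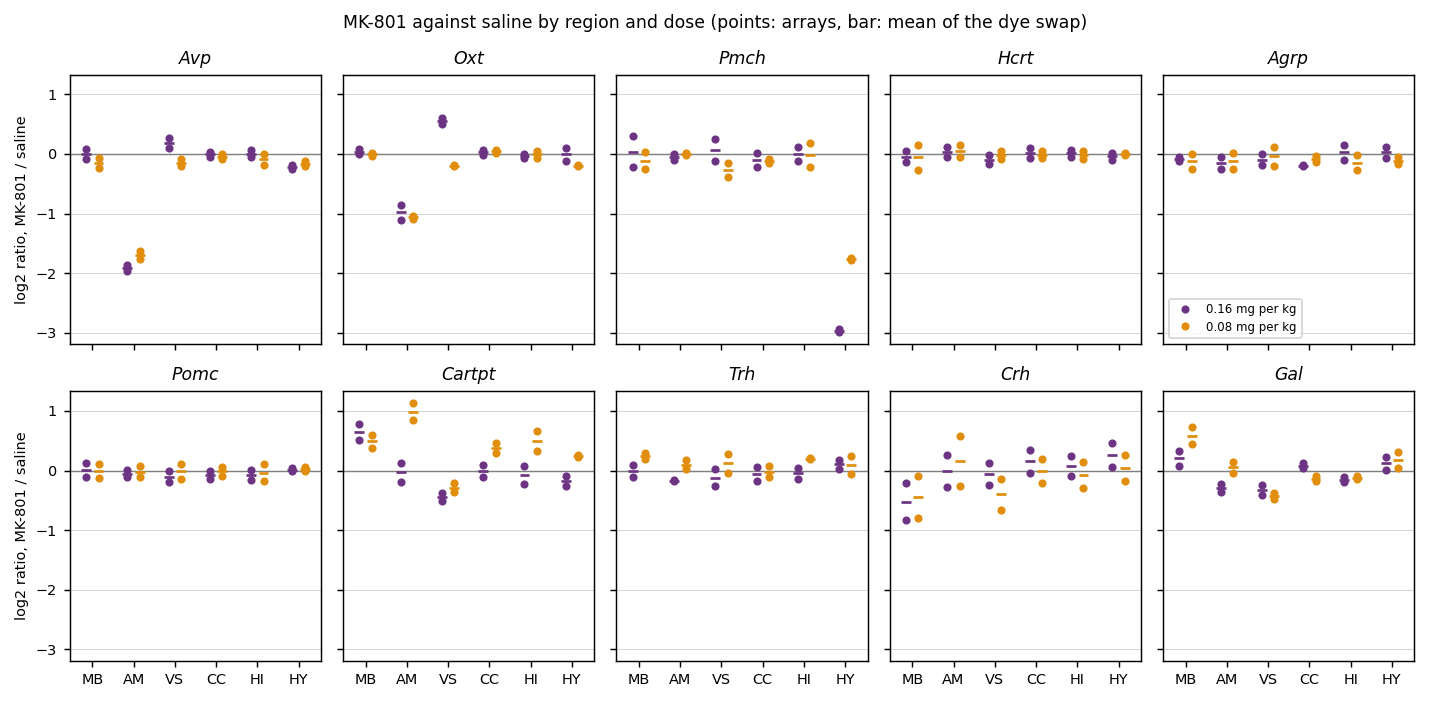
Log2 of MK-801 over saline signal (y axis) for each peptide gene by region (abbreviations as for the saline levels); points are single arrays at 0.16 mg per kg (purple) or 0.08 mg per kg (orange) and bars are the mean of the dye swap. Pmch lies at -2.96 and -1.76 in the hypothalamus, and Avp at -1.91 and -1.70 in the amygdala.

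In the amygdala, the posterior pituitary hormones read below saline at both doses, which shared the 3 saline rats as control. Avp read 11.37, 10.95, 11.07 and 10.89 in saline RNA and 9.41, 9.08, 9.44 and 9.12 in MK-801 RNA, so the channels did not overlap. Its ratios were -1.96 and -1.87 at the high dose (3.77-fold lower) and -1.63 and -1.77 at the low dose (3.24-fold lower). The mean was -1.81 ± 0.07 (SE, adjusted p = 2.94e-08, limma), the lowest of all genes tested in that region. The MK-801 values lay near the saline values of the hypothalamus, 9.06 to 9.28.

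The second Avp probe gave -1.40, -1.39, -1.38 and -1.38 in the amygdala, a smaller change from a dimmer signal that was above background in both colours on 3 of the 4 arrays.

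Oxt read 7.90, 8.03, 7.86 and 8.07 in saline RNA of the amygdala and 7.05, 6.92, 6.82 and 6.99 in MK-801 RNA, close to its level in regions that lack a clear signal. Its ratios were -0.85, -1.10, -1.04 and -1.08, and the mean was -1.02 ± 0.10 (SE, adjusted p = 0.000126, limma), the third lowest of all genes. With the scanner software's own log ratios, which do not add an offset to dim signals, the Oxt value was -2.08. In the amygdala, 3.5% of all genes were called and 2 of the 10 peptide genes. An unadjusted p under 0.05 (limma) was reached by 4 of the 10, against 4111 of 21567 genes in all. Whether the amygdala differed from other regions was not tested.

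Outside the amygdala, Avp and Oxt were not called in any region. In the ventral striatum Oxt had 0.60 and 0.50 at the high dose but -0.18 and -0.21 at the low dose, and Avp had 0.26 and 0.10 but -0.09 and -0.20. Over the 12 dye swap values Oxt was the gene most like Avp, and Avp the gene most like Oxt (r = 0.95), among 964 others; the amygdala gave 2 of those 12 values. In saline levels Oxt was most like Ptger3 (r = 0.95) and Zic4 (r = 0.94) among genes with a symbol.

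**Figure D3:**
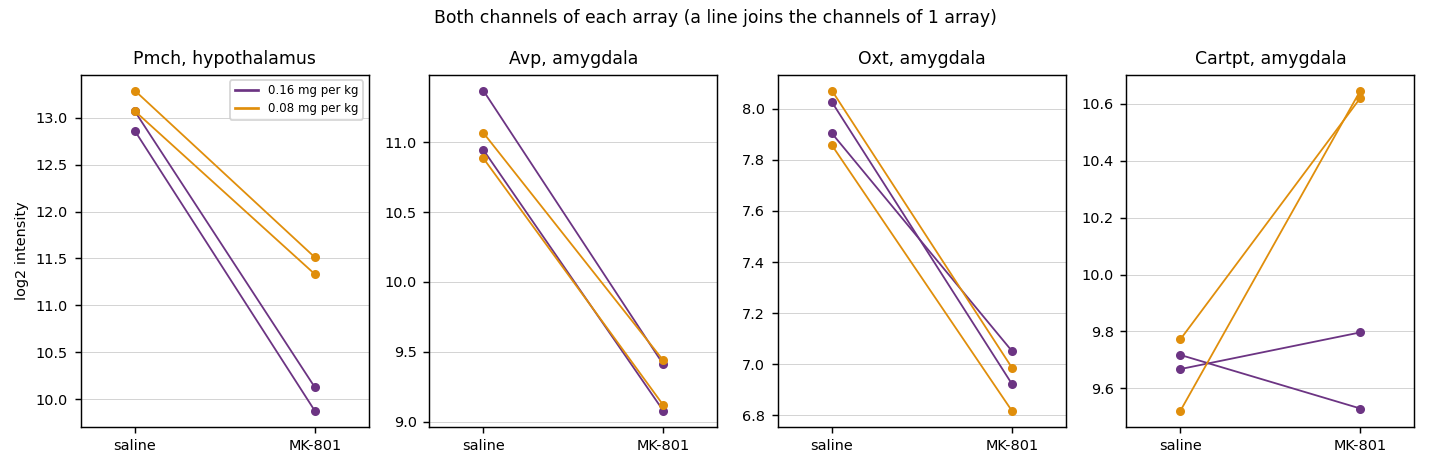
Log2 intensity of both channels of each array, saline on the left and MK-801 on the right, with 1 line per array (purple 0.16 mg per kg, orange 0.08 mg per kg) and a separate y axis per gene. Pmch in the hypothalamus and Avp and Oxt in the amygdala fall on all 4 arrays; Cartpt in the amygdala is above saline on both low dose arrays, at 10.65 and 10.62.

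Other markers in the amygdala samples moved as well. Of 7 choroid plexus genes, 6 rose: Kcne2 by 0.60, Aqp1 by 0.59, Folr1 by 0.55, Clic6 by 0.55, Slc4a5 by 0.30 and Prlr by 0.25. Folr1 had 0.90 at the high dose and 0.20 at the low dose, and Prlr was above background in both colours on 2 of 4 arrays. The summed level of the 9 measured stood at 15.10 to 15.70 in saline and 15.70 to 16.81 in MK-801 RNA. Ttr, the brightest of them, read 15.22 in saline RNA and was not called. Striatal markers rose in 3 of 8 cases, among them Adora2a by 0.49 and Rgs9 by 0.26. Their sums were 14.21 to 14.48 in saline and 14.32 to 14.76 in MK-801 RNA, with Rasd2 the brightest at 14.10 in saline RNA. No hypothalamic transcription factor of 13 and no thalamic marker of 5 was called by limma; 2 and 1 of them reached an unadjusted p under 0.05. The part of these cell types in the fall of Avp and Oxt was not tested. Nor was a difference in dissection between saline and MK-801 rats.

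**Figure D4:**
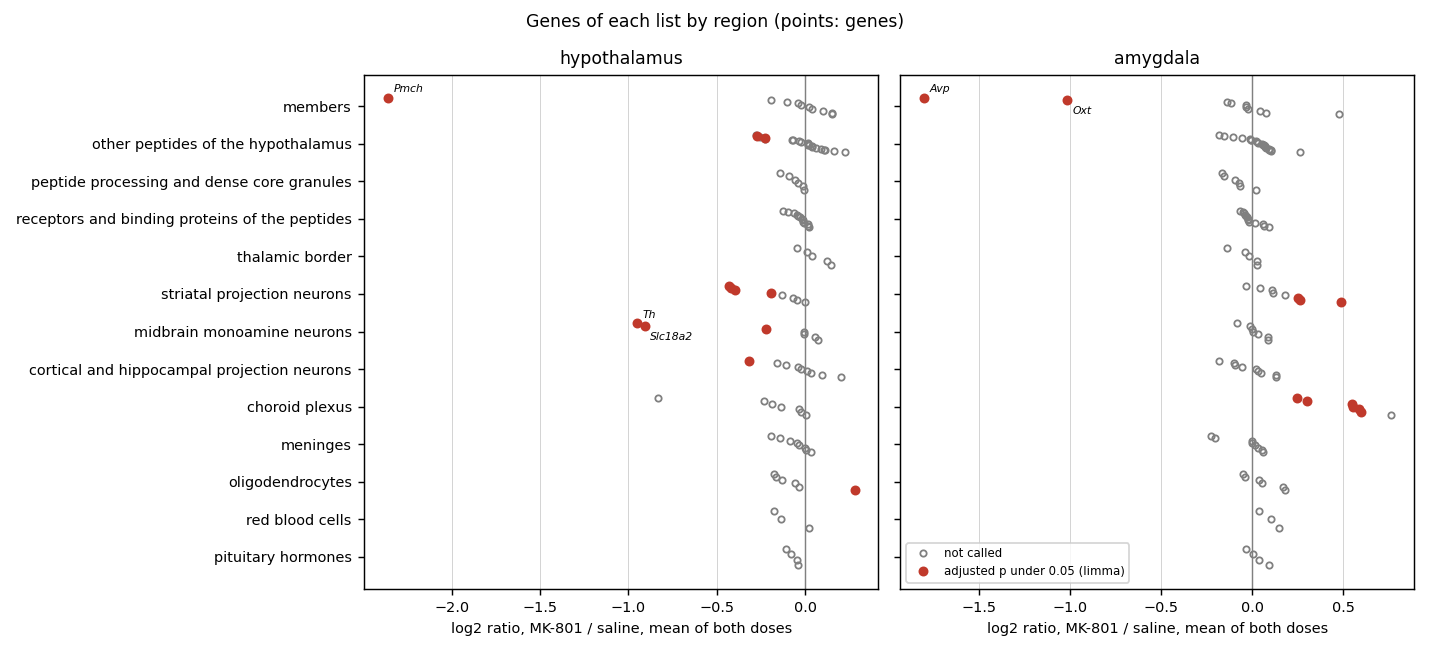
Change over both doses (x axis, log2 of MK-801 over saline signal) of the genes in the lists named at the left (rows) in the hypothalamus and the amygdala; filled points have an adjusted p under 0.05 in limma. Pmch stands alone at -2.36 on the left, with Th and Slc18a2 near -0.9, and on the right Avp at -1.81 and Oxt at -1.02 lie opposite the choroid plexus genes at 0.25 to 0.60.

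Since Avp and Oxt fell together, the 250 bases before the start of each gene are shown from RefSeq on assembly GRCr8. Capitals mark TGACC or its complement GGTCA, a core motif of nuclear receptors known from the oxytocin promoter.
Oxt upstream: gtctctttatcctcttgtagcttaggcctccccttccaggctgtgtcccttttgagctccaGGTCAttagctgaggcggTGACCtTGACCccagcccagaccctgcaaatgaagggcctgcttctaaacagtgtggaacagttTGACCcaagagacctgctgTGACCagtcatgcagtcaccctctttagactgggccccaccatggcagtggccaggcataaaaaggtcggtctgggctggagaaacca
Avp upstream: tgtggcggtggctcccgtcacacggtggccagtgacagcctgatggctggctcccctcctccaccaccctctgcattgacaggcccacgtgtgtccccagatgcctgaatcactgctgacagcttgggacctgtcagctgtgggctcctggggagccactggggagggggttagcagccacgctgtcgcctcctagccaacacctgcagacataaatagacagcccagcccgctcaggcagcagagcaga
They lie at chr3:138235504-138235753 on the plus strand and chr3:138248523-138248772 on the minus strand. On both strands, TGACC occurred 5 times before Oxt and 0 times before Avp, and 35.4% of 33469 windows of this length held it. The longer AGGTCA, which overlaps it, occurred 2 times and 0 times (14.1% of windows), CANNTG 1 and 4 times (65.5%) and TGACGTCA in neither (1.59%). These counts describe the letters of the windows.

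In the midbrain, 3 of the 10 peptide genes were called, where 2.11% of all genes were. Cartpt had ratios of 0.78, 0.50, 0.60 and 0.38 on a saline level of 13.67 to 13.92, and rose to 1.48-fold (0.57 ± 0.13 SE, adjusted p = 0.0394, limma). Gal had 0.33, 0.07, 0.73 and 0.45 and rose by 0.39 ± 0.08 (adjusted p = 0.0281). Crh fell by 0.49 ± 0.07 (adjusted p = 0.00226), but its single arrays split by dye, with -0.21 and -0.10 where MK-801 RNA was in Cy5 and -0.84 and -0.80 where it was in Cy3. Without array number 4, Crh had -0.31 and did not pass (adjusted p = 0.131). All 3 calls were lost with the scanner software's log ratios, where adjusted p was 0.244 for Cartpt, 0.192 for Gal and 0.101 for Crh.

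Among other hypothalamic peptides, Ucn, urocortin, which Cartpt neurons of the Edinger-Westphal nucleus also make, rose by 0.56 in the midbrain, and Grp, gastrin-releasing peptide, fell by 0.38. Beside them, Tph2 and Slc6a4, an enzyme and a transporter of serotonin neurons, rose by 1.09 and 0.79. The thalamic markers Prkcd, Ntng1 and Lef1 fell by 1.03, 0.40 and 0.31. Mbp, of myelin, was called higher by 0.31, but its single arrays ranged from -0.58 to 1.12. Six3 was called lower by 0.30, with arrays from -1.34 to 0.22 and 3 of 4 above background in both colours. The part of these genes in the changes of Cartpt, Gal and Crh was not tested.

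In the ventral striatum, Gal alone of the 10 was called, where 1.83% of all genes were. It had -0.25, -0.40, -0.38 and -0.48 and fell by 0.38 ± 0.08 (SE, adjusted p = 0.0363, limma), a call lost without array number 2 or 4 and with the scanner software's log ratios. Cartpt lay below saline on all 4 arrays there, with -0.37, -0.52, -0.21 and -0.36, and did not pass (adjusted p = 0.221). The cortical peptides Vip, Grp and Cck fell by 0.45, 0.31 and 0.20, Crhbp, the binding protein of Crh, by 0.24 and the peptide convertase Pcsk1 by 0.17. Beside them, Neurod6 and Cux2 of cortical projection neurons fell by 0.26 and 0.28, and Rasgrf2 rose by 0.35 and Aspa by 0.44. The red cell transcripts Hbb and Alas2 were called lower over both doses, by 0.55 and 0.21. Hbb had 0.01 at the high dose and -1.11 at the low dose, and Alas2 had 0.15 and -0.57. The part of these genes in the fall of Gal was not tested. In the cortex and the hippocampus none of the 10 was called by limma, with 1.52% and 1.63% of all genes called. An unadjusted p under 0.05 was reached by 1 and 0 of the 10, against 2391 and 3378 of 21567 genes in all.

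Across regions, each peptide gene was then tested on 6 regional values against 0. Over both doses, Agrp alone was called, with -0.09 ± 0.04 (SD, n = 6, lower in 6 of 6 regions, adjusted p = 0.0412, limma), while 2.62% of all genes were called. At the low dose it was again the only one, with -0.11 ± 0.04 (lower in 6 of 6, adjusted p = 0.0462), against 2.61% of all genes. Each call was lost in 15 of 22 other settings, and the Agrp probe did not mark the hypothalamus in saline RNA. Without array number 4, on which MK-801 RNA was in Cy3, the values were -0.05 and -0.01, and without array number 2 the value over both doses was -0.06. At the high dose 0 of the 10 was called by limma and 1 passed an unadjusted p under 0.05. Of 23328 genes in all, 2.12% were called and 2802 passed unadjusted. For high minus low dose, 0 was called and 2 passed unadjusted, with 1.52% of 23090 genes called and 2494 passing unadjusted.

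Pmch and Avp, each with a large change in 1 region, did not pass across regions. Over both doses Pmch had -0.44 ± 0.94 (SD, n = 6, adjusted p = 0.514, limma) and Avp -0.36 ± 0.71 (adjusted p = 0.481). At the low dose, Avp had -0.12 without the amygdala and passed (adjusted p = 0.047, limma). Within scan day 3, which holds the hippocampus and the hypothalamus, Pmch had -0.89 at the low dose and passed (adjusted p = 0.0109, limma). That fit had 2 values, -0.02 in the hippocampus and -1.76 in the hypothalamus. Avp and Pmch also passed at the low dose without array number 3 (-0.45 each), where 35.7% of all genes were called.

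Cartpt differed most between the doses across regions among the 10 genes. At the low dose it was above saline in 5 of 6 regions, by 0.99 in the amygdala (arrays 1.13 and 0.85), 0.49 in the hippocampus and in the midbrain, 0.38 in the cortex and 0.25 in the hypothalamus. At the high dose those regions had -0.03, -0.07, 0.64, -0.01 and -0.17. High minus low was -0.40 ± 0.39 across regions (SD, n = 6, lower in 5 of 6, adjusted p = 0.111, limma), and the low dose alone had 0.39 ± 0.41 (adjusted p = 0.114). Without the ventral striatum the low dose value was 0.52 and passed (adjusted p = 0.00791). With dye orientation as a replicate block it passed as well (0.39, adjusted p = 0.0103, limma), with 4.12% of all genes called. That fit took single arrays as values, with a correlation of 0.07 between arrays of a region. Its pass therefore cannot be read as a test on 6 regional values. High minus low passed without the midbrain (-0.51, adjusted p = 0.0114). Trh had the same order of doses, 0.12 ± 0.09 at the low dose and -0.05 ± 0.10 at the high dose. Their difference missed the threshold (-0.17, adjusted p = 0.0729, limma). It passed without the hypothalamus (-0.21, adjusted p = 0.0329, limma), and the low dose passed without the cortex (0.15, adjusted p = 0.0386, limma). In each of these fits of Cartpt and Trh without a region, the region left out was the only region of opposite sign. Leaving out any other region gave these genes no pass in those comparisons. Leaving out 1 array breaks a dye swap, and the fits across regions then called 28.3% to 32.1% of all genes at the high dose, 31.0% to 35.7% at the low dose and 23.1% to 32.1% for high minus low. Against that background, Cartpt passed at the low dose without array number 3 or 4 and in high minus low without 1, 3 or 4, and Trh passed at the low dose without 4 and in high minus low without 1 or 4. Without array number 3, where 35.7% of all genes were called at the low dose, Crh had -0.40 and Pomc -0.11 and passed, against -0.12 ± 0.25 and -0.01 ± 0.02 (SD, n = 6) with all arrays. Passing in these fits sets no member apart from genes in general.

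The wider peptide system was read through 3 further lists. In the hypothalamus, 2 of 21 other hypothalamic peptides were called, both lower, and 8 of the 21 had an unadjusted p under 0.05, against 2756 of 21567 genes in all. Sst, somatostatin, fell by 0.27 and Tac1, the substance P precursor, by 0.22. The median size of change was 0.076 in this list and 0.041 over all genes. Nts had -0.28 and Penk -0.25, without a call, and Pdyn, not tested, had -0.59 and -0.72. Of 13 receptors and binding proteins of the 10 peptides, 0 were called there by limma (1 at an unadjusted p under 0.05), with Crhbp at -0.12 and Mc4r, a receptor for Pomc and Agrp products, at -0.10. None of 6 peptide processing genes was called (1 unadjusted), with Qpct at -0.14 and Scg2 at -0.09. In the amygdala, 0 of these 13, 21 and 6 genes were called by limma. An unadjusted p under 0.05 was reached by 0, 6 and 2 of them, against 4111 of 21567 genes in all.

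Patterns of the remaining members were described in the same way. In change over the 12 dye swap values, Crh was most like Mef2a (r = 0.87) and Gal like Gchfr (r = 0.80) among genes with a symbol. In saline level over the 24 channels, Cartpt was most like Slc10a4 (r = 0.98) and Pbx3 (r = 0.93), Trh like Cited4 (r = 0.93) and Grm4 (r = 0.91), Crh like Grm8 and Spag4 (r = 0.89 each) and Gal like Atp13a4 (r = 0.96). The saline channels of a region share slide and dissection.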

How the data were processed

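Per the labels, total RNA was amplified, labelled and hybridised to 24 two-colour arrays, and per the submitters' processing notes the scans were read with Agilent Feature Extraction 9.5.3.1. The deposited scanner files hold mean and background intensity per colour, and a log10 ratio of Cy5 to Cy3 made by that software; the deposited value table also holds the log10 ratio, not turned for dye swaps. Signals were corrected with normexp (offset 50) and loess; dye swaps were averaged, which cancels a dye effect, and levels used Aquantile (limma 3.58.1, R 4.3.3). Control spots and outliers were left out. Genes, named through RefSeq, took their brightest probe. For tests across regions a probe had to be well above background in both colours on 12 of 24 arrays, with 4 of 6 regional values; for tests within regions, on all 4 arrays of at least 1 region, with all 12 values. Tests were lmFit and eBayes with Benjamini-Hochberg adjustment over all genes, called at 0.05, and were tested on simulated data. In both colours, 55.2% to 78.5% of probes exceeded background; the number of arrays limits the precision, and no member spot was saturated.

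Every peptide gene was named. Of the other lists, the text names genes past the threshold and at most the 4 with the largest mean ratios in the hypothalamus by size, and the 3 genes most like each member; markers highest there in saline were named for their level. The members and lists were chosen with earlier results of these data known. Region, slide and scan day (3 days, 2 regions each) cannot be told apart. The array number marks the dye orientation in the labels: deviations of arrays with the same number correlated across regions (median r = 0.65, 0.52 to 0.74 over 60 pairs), so the replicate block is an alternative. The deviations of the 2 arrays of a dye swap are exact opposites, so pairs of its 2 numbers repeat the same r. Some genes that the naming rule picks are not reported here.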

Additional observations from a re-analysis of the deposited data

Results flagged for a closer look

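In 3 genes, 1 region lay far from the other 5 in the change over both doses: Pmch in the hypothalamus at -2.36, Avp in the amygdala at -1.81 and Oxt in the amygdala at -1.02. For Pmch the test of the difference between the hypothalamus and the mean of the other regions was also passed, at -2.31. Among the 4 saline channels of a region, 1 array lay apart from the rest for Pmch in the amygdala (8.10, array number 1), Cartpt in the hippocampus (8.79, array number 1) and Trh in the hippocampus (6.46, array number 3). About 1 group in 20 is expected to hold such a value by chance.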

How the results depend on the processing

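Pmch in the hypothalamus and Avp in the amygdala passed in all 11 other settings, with values of -2.44 to -2.34 and -1.96 to -1.60, and Oxt in the amygdala in all 10 that gave a value, with -2.08 to -0.96. Under the robust prior with a trend, the difference of the hypothalamus from the other regions called 0 peptide genes, the midbrain 1 and the ventral striatum 0. With the scanner log ratios or the series value table, 0 peptide genes were called over both doses, at the low dose, in the midbrain and in the ventral striatum. With median centring these counts were 0, 0, 1 and 0, and with no filter on dim probes the low dose count was 0. Without 1 array number the counts ranged from 0 to 1 over both doses, 0 to 3 at the high dose, 1 to 6 at the low dose, 1 to 3 for high minus low and 0 to 2 in the ventral striatum. Leaving out an array breaks its dye swap. The broken fits called 28.3% to 32.1% (high), 31.0% to 35.7% (low) and 23.1% to 32.1% (high minus low) of all genes. Over both doses the share was 15.9% to 20.5%, and fits at the dose of the intact swaps stayed as before. Without array number 3, the 6 of 10 called at the low dose stood against 35.7% of all genes. The 2 of 10 called in the ventral striatum without that number stood against 3.43%. Leaving out 1 region gave 0 for both doses, 0 to 1 at the low dose and 0 to 1 for high minus low. Within scan days 1, 2 and 3 the counts were 1, 0 and 0 over both doses and 1, 0 and 2 at the low dose. The calls within scan day 1 were of Cartpt, at 0.52 over both doses and 0.74 at the low dose, from 2 regional values each. Scan day as a block gave 0 over both doses. With the dye orientation as a replicate block, a fit on single arrays, the low dose count was 2. That of Cartpt was the only call of a peptide gene that changed. Crh at the high dose ranged from -0.23 to 0.21 without 1 array number, and passed, turned, without number 2, where 32.1% of all genes were called. In Cy3 saline channels alone, 5 genes were highest in the hypothalamus, Pomc and Gal by 0.03 and 0.04. Signal limits the dim probes: the second Avp probe was above background in both colours on 1 of 4 arrays in the ventral striatum.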
